A study of Mus musculus with 12 samples.

Results

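MHC class I genes and the machinery that loads their peptides were followed in mouse bone marrow-derived macrophages taken from animals on 2 diets. The 10 genes, chosen by name, were *H2-K1*, *H2-D1*, *B2m*, *Tap1*, *Tap2*, *Tapbp*, *Psmb8*, *Psmb9*, *Psmb10* and *Nlrc5*. All 10 were present among the 13232 genes of the deposited table. Their levels were compared between 3 libraries from mice on a high-fat diet (HFD) and 3 from mice on a normal diet (ND), every one of them after low oxygen.

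The mice were C57B6/J with genotype WT, and their age and time on the diet are not given in the sources used here. Marrow cells were grown into macrophages with 20 ng/ml of M-CSF, the growth factor that drives this lineage, in medium with 10% serum that was replaced by serum-free medium on day 4. On day 7 both groups spent 1 h at 1% oxygen, so low oxygen is common to them and its effect is not measured here. The study has 12 libraries in 4 groups, and the 6 kept at normal oxygen were not analysed here. The labels do not say that the 3 libraries of a diet came from 3 mice, so p-values measure the spread between libraries, which may be partly technical.

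Class I molecules show the cell's own peptides to CD8 T cells. A heavy chain pairs with beta-2 microglobulin in the endoplasmic reticulum and takes up a peptide there. The peptides are cut by the proteasome, whose catalytic subunits are exchanged for interferon-inducible ones in the immunoproteasome, and are pumped into the endoplasmic reticulum by the TAP transporter. NLRC5 is the transactivator that acts at class I promoters through factors bound to a module of boxes called S, X and Y, and it shares those factors with CIITA, the transactivator of class II genes. Interferons are known to raise these genes in macrophages.

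Estimated depth was 19046366 to 22805246 reads in the ND libraries and 23017055 to 24491464 in the HFD libraries. The macrophage markers listed for the check (*Adgre1*, *Csf1r*, *Cd68*, *Itgam*, *Mertk* and *Fcgr1*) were 6 of 6 in the table, with a summed level of 112425 to 130304 in ND and 123318 to 131268 in HFD. None of 5 B cell, 5 NK cell or 4 erythroid markers was listed, and of 6 T cell markers 1 was, *Cd4* (202 to 356 in ND and 98.1 to 230.04 in HFD). Of 9 dendritic cell markers 2 were listed, *Itgax* and *Batf3*, with a summed level of 1196 to 2200 in ND and 2128 to 3123 in HFD. *Flt3*, *Zbtb46*, *Xcr1* and *Clec9a*, which define dendritic cells, were not among the listed genes. Neutrophil markers (5 of 9) summed to 1599 to 2226 in ND and 1982 to 3180 in HFD, and stromal markers (3 of 5) to 177 to 549 and 51.8 to 337. The part of these differences in the class I values was not tested, and in bulk RNA fewer cells of a type and less RNA per cell cannot be told apart.

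The promoters of 4 of the genes are shown first because class I promoters are known to be switched on through shared boxes, and these windows let the letters of such boxes be compared. RefSeq (GRCm38.p6) windows of 250 bases before to 50 after the start site were matched for 8 of the 10 genes, all but *Tap2* and *Nlrc5*. Each sequence below is the 200 bases before the start site, 5′ to 3′ on the gene's own strand, with the matches described after it in capitals. They lie at chr17:34000348-34000547 (minus strand, *H2-K1*), chr17:35262894-35263093 (plus strand, *H2-D1*), chr2:122147487-122147686 (plus strand, *B2m*) and chr17:34187356-34187555 (plus strand, *Tap1*).
H2-K1: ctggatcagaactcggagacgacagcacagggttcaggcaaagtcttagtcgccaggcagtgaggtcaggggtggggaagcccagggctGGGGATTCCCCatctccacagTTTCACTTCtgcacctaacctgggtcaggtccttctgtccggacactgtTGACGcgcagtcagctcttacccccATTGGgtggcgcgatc
H2-D1: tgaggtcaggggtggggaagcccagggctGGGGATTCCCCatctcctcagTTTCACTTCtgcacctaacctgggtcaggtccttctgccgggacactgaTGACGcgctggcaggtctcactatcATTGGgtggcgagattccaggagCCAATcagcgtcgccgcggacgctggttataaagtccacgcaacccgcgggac
B2m: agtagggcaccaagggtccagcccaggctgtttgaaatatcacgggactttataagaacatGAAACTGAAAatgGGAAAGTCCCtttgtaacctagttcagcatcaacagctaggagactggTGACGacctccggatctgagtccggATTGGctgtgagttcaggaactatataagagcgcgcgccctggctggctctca
Tap1: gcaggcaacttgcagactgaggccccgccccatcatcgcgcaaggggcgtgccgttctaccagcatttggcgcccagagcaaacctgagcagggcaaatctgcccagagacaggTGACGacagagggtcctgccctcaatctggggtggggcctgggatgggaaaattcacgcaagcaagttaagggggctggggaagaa

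The capitals mark 5 strings, each searched on both strands of the 300-base windows: GAAA, 2 bases of any kind and GAAA (the long form of the interferon response element), GAANNGAAA (its short form, which can overlap the long one), GGGA, any base, T, 2 bases of any kind and CC (an NF-kB site), TGACG (the core of a cyclic AMP response element and of the X box) and CCAAT (the Y box, read as ATTGG on the other strand). The NF-kB letters were found in *H2-K1*, *H2-D1* and *B2m*, against 4.14% of 32544 promoter windows. The short interferon response form was found in *H2-K1* and *H2-D1* (7.57% of windows) and the long form in *B2m* (3.45%). TGACG was in 5 of the 8 gene windows (*H2-K1*, *H2-D1*, *B2m*, *Tap1* and *Psmb9*) against 20.9% of windows, and CCAAT in 6 of 8 against 37.4%. The *Tap1* and *Psmb9* matches to these strings are the same bases in overlapping windows, so each count holds 1 place more than once. TGACG was also in the windows of *Psmb5* and *Psmb6*, constitutive proteasome subunits searched in the same way, and the short interferon response form was in that of *Psmb6*. No string was found in the *Psmb8* and *Psmb10* windows, which says only that these letters are not there.

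*H2-K1* and *H2-D1* carried the interferon response, TGACG and ATTGG letters in the same order and spacing, 60 bases farther from the RefSeq start site in *H2-D1* (-150, -101 and -76) than in *H2-K1* (-90, -41 and -16). The letters tataaagtccacgca, found in both windows, stand before that start site in *H2-D1* and after it in *H2-K1*. The 60 bases therefore depend on where the start sites were placed and are not a difference in the order of the boxes. Their windows aligned over 279 positions with 78.1% identity. In *H2-K1*, *H2-D1* and *B2m* alike, TGACG was followed after exactly 20 bases by ATTGG. This pair was searched for after the promoters had been read. It stood in 31 of 32544 windows (0.0953%), at 27 genes, of which 18 were in the expression table. Besides the 3 members, *H2-M3*, a class I heavy chain that presents formylated peptides, was 1 of them, and 14 of the 18 were no class I genes. A match is a description of letters and not a site shown to be bound.

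*Tap1* and *Psmb9* are transcribed away from each other, with RefSeq start sites 226 bases apart, so their windows cover the same DNA over 275 bases. In GENCODE M21 their exons overlap by 212 bases on opposite strands. The kit keeps the strand, but whether the counting used it is not given in the sources used here.

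On annotation, the 10 genes are protein coding (GENCODE M21, GRCm38). *Tapbp*, *H2-K1*, *Psmb9*, *Tap1*, *Psmb8*, *Tap2* and *H2-D1* lie on chromosome 17 between positions 33915899 and 35267499, *Psmb9*, *Tap1*, *Psmb8* and *Tap2* side by side at 34181987 to 34216321. *B2m* is on chromosome 2 (122147686 to 122153083), and *Nlrc5* (94434356 to 94527272) and *Psmb10* (105935735 to 105938444) are on chromosome 8. Heavy chain genes are close copies of each other. Of the 75-base words in *H2-K1* transcripts 3.10% also occur in transcripts of 15 other genes, and for *H2-D1* 5.40% in 17 other genes, while for *Tapbp* the share was 1.10% and for the other 7 genes 0%. The *H2-K1* and *H2-D1* values therefore depend in part on how reads were shared between copies.

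Levels spanned a wide range between these genes in the macrophage cultures. Set against exon length, the normalized count per kilobase in ND was 36375 ± 4338 for *B2m*, the common light chain (SD, n = 3 libraries here and below). *H2-D1*, a classical heavy chain, had 22041 ± 174 and *H2-K1*, the other one, 4255 ± 286. The same scale gave 2714 ± 131 for *Tapbp* (tapasin, which holds empty class I at the transporter), 473 ± 74.1 for *Psmb10*, 433 ± 50.9 for *Psmb8*, 282 ± 27.8 for *Tap2*, 199.6 ± 19.98 for *Tap1*, 127 ± 8.76 for *Psmb9* and 96.9 ± 14.9 for *Nlrc5*. By this measure *B2m* ranked 21 and *H2-D1* ranked 35 among 12964 genes with a length, whereas *Nlrc5* ranked 7752. The order held in 6 of 6 libraries for each pair of neighbours but *Psmb10* and *Psmb8*, for which it held in 5. The length is the union of all annotated exons (3381 bases for *Psmb8* and 1705 for *Psmb10*). It is the same in every library, so this agreement is no check on it. Before division by length, *Psmb8* had the higher ND mean (1465 against 807 for *Psmb10*). The ranges of *Psmb9* (108 to 137) and *Nlrc5* (76.9 to 114) overlapped between libraries although *Psmb9* was the higher in each.

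Between the diets, the estimated difference was below 0 (a lower mean in HFD) for 9 of the 10 genes, beside 51.1% of all genes tested. The median log2 fold change over the 10 was -0.14, against -0.0034 over all genes. In the limma fit, with p-values adjusted by Benjamini-Hochberg over every gene, 0 of the 10 were under 0.05, and so was 0% of the table. At an unadjusted p under 0.05 there were 3 of the 10, all lower in HFD, where 5.18% of all genes (686 of 13232) were called in that direction and 10.6% (1401) in either. The same 3, *H2-K1*, *Tap1* and *Nlrc5*, had HFD values all below the ND values, as did 7.07% of all genes, with 7.44% separated the other way (14.5% in all). With limma's array weights, which let noisy libraries count less, these 3 passed the adjusted threshold, where 4.02% of all genes did so in that direction (4.54% in the other and 8.56% in either). Genes that share regulators and libraries are not independent, so these counts describe the list and are no test of it. Without 1 library, 8 (HFD replicate 3 left out) to 10 of the 10 estimates were below 0.

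**Figure D1:**
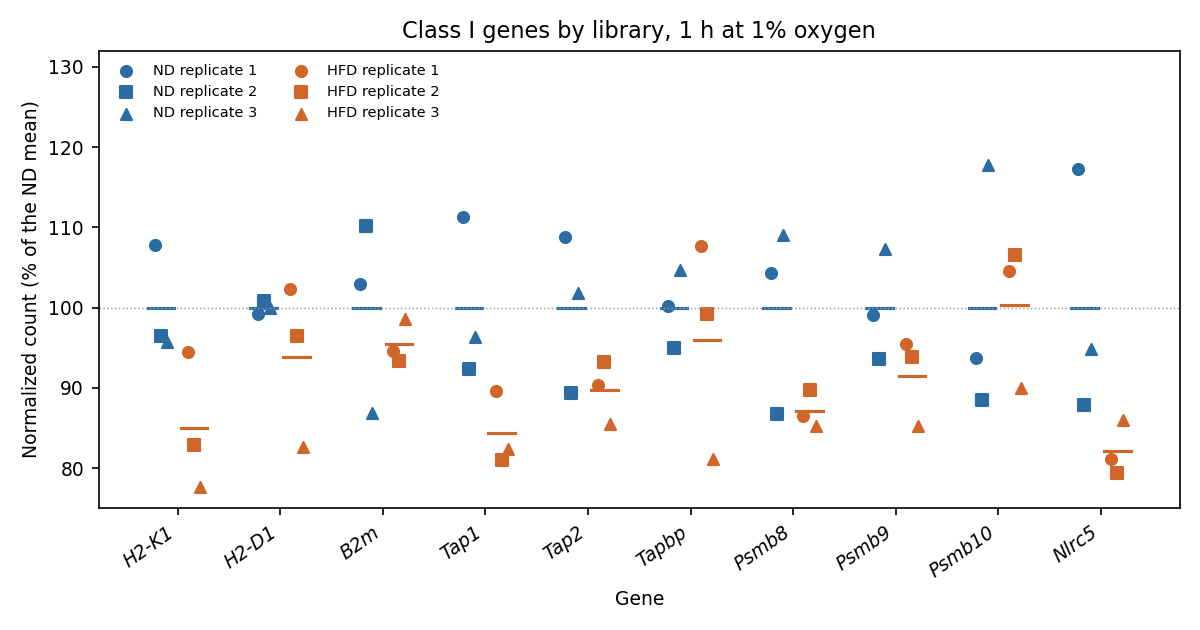
Normalized count of each class I gene in each library, as a percent of the gene's ND mean (vertical axis, starting at 75%), for 3 ND (blue) and 3 HFD (orange) libraries, with short lines at the diet means. For *H2-K1*, *Tap1* and *Nlrc5* every orange point lies under every blue one, and HFD replicate 3 is the lowest point for 6 of the 10 genes.

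The plot of the values by library shows which libraries carried the pattern. HFD replicate 3 had the lowest value for 6 of the 10 genes and stood above the gene's own mean for 1. ND replicate 1 had the highest value for 4 and stood above the mean for 9, as did ND replicate 3, the shallowest library, which was highest for 3. ND replicate 2 was above the mean for only 4 of 10 and HFD replicate 1 for 4 of 10. On the log2 scale, the members' average departure from their own means was 0.14, -0.014 and 0.092 in the ND libraries, and -0.0067, -0.056 and -0.15 in the HFD libraries, in replicate order. The diets thus overlapped at ND replicate 2 and HFD replicate 1, which differed by less than 0.01 on this scale.

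Of the heavy chains, *H2-K1* had normalized counts of 13471, 12067 and 11967 in ND and 11816, 10362 and 9711 in HFD, given in the order of replicates 1, 2 and 3 as for every gene here. The diets did not overlap, though the highest HFD and lowest ND values were close. Its mean was 12501 ± 841 in ND and 10630 ± 1078 in HFD, a log2 fold change of -0.24 (95% interval -0.43 to -0.045, SE 0.085, limma adjusted p 0.378). *H2-D1* had 56423, 57314 and 56791 in ND and 58160, 54829 and 46982 in HFD. Its ND values lay within a narrow band, the HFD values lay on both sides of it, and replicate 3 alone stood far below (log2 fold change -0.098, 95% interval -0.31 to 0.11, limma adjusted p 0.760). Without HFD replicate 3 the *H2-D1* difference was -0.0095, and without HFD replicate 1 it was -0.16.

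*B2m* had 32193, 34474 and 27181 in ND and 29598, 29195 and 30848 in HFD. The ND libraries were the more spread and enclosed all 3 HFD values, with no separation of the diets (log2 fold change -0.059, 95% interval -0.27 to 0.15, limma adjusted p 0.866), and the sign turned without ND replicate 2 (0.014). Leaving out ND replicate 3 gave -0.16, and leaving out ND replicate 1 gave -0.035. The light chain and the more abundant heavy chain thus had intervals that include 0.

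For the transporter, *Tap1*, one subunit of the TAP pump, had 1217, 1009 and 1053 in ND and 979, 886 and 899.9 in HFD. All HFD values were below the lowest ND value (log2 fold change -0.24, 95% interval -0.43 to -0.053, SE 0.085, limma adjusted p 0.362). Its partner *Tap2* had 1161.5, 954 and 1086 in ND and 965, 995 and 913 in HFD. Here ND replicate 2 lay among the HFD values (log2 fold change -0.15, 95% interval -0.34 to 0.035, limma adjusted p 0.575), which became -0.089 with ND replicate 1 left out and -0.23 with ND replicate 2 left out. *Tapbp* had 9871, 9357 and 10310 in ND and 10601, 9766 and 7986 in HFD. Its highest and its lowest value were both from HFD (log2 fold change -0.068, limma adjusted p 0.854), and without HFD replicate 3 the difference was 0.048. It was -0.16 without HFD replicate 1, -0.10 without ND replicate 2 and -0.034 without ND replicate 3.

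Of the immunoproteasome subunits, *Psmb8* (LMP7, the chymotrypsin-like one) had 1528, 1270.2 and 1597 in ND and 1268, 1314 and 1249 in HFD. ND replicates 1 and 3 were above every HFD library and ND replicate 2 was among them (log2 fold change -0.19, 95% interval -0.39 to 0.0046, limma adjusted p 0.486). Leaving out ND replicate 2 gave -0.29 and leaving out ND replicate 3 gave -0.13. *Psmb9* (LMP2) had 462, 436 and 499.8 in ND and 445, 437 and 397 in HFD, with overlap (-0.13, limma adjusted p 0.657). Its estimate was -0.076 without ND replicate 3 and -0.077 without HFD replicate 3. *Psmb10* (MECL-1) had 756, 714 and 951 in ND and 844, 859.8 and 726 in HFD. It was the single member whose estimate was above 0 (0.013, 95% interval -0.24 to 0.27, limma adjusted p 0.980), and that sign turned in 4 of the 6 fits without 1 library.

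*Nlrc5*, the transactivator, had 966, 724 and 781 in ND and 669, 653 and 708 in HFD. The HFD libraries lay close together under all ND libraries, and ND replicate 1 stood well above the rest. With a log2 fold change of -0.27 it had the largest estimate of the 10 (95% interval -0.51 to -0.038, SE 0.10, limma adjusted p 0.403), and without ND replicate 1 it was -0.15. The spread between libraries of a diet was 0.16 on the log2 scale for *Nlrc5* and 0.094 (*Psmb9*) to 0.18 (*Psmb10*) over the members, beside 0.12 at the median gene. Counting error over the 10 members was 0.426% (*H2-D1*) to 4.73% (*Psmb9*) of the value. For each of them it was less than the spread between libraries of a diet, pooled over both diets. It was not computed for the other genes.

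**Figure D2:**
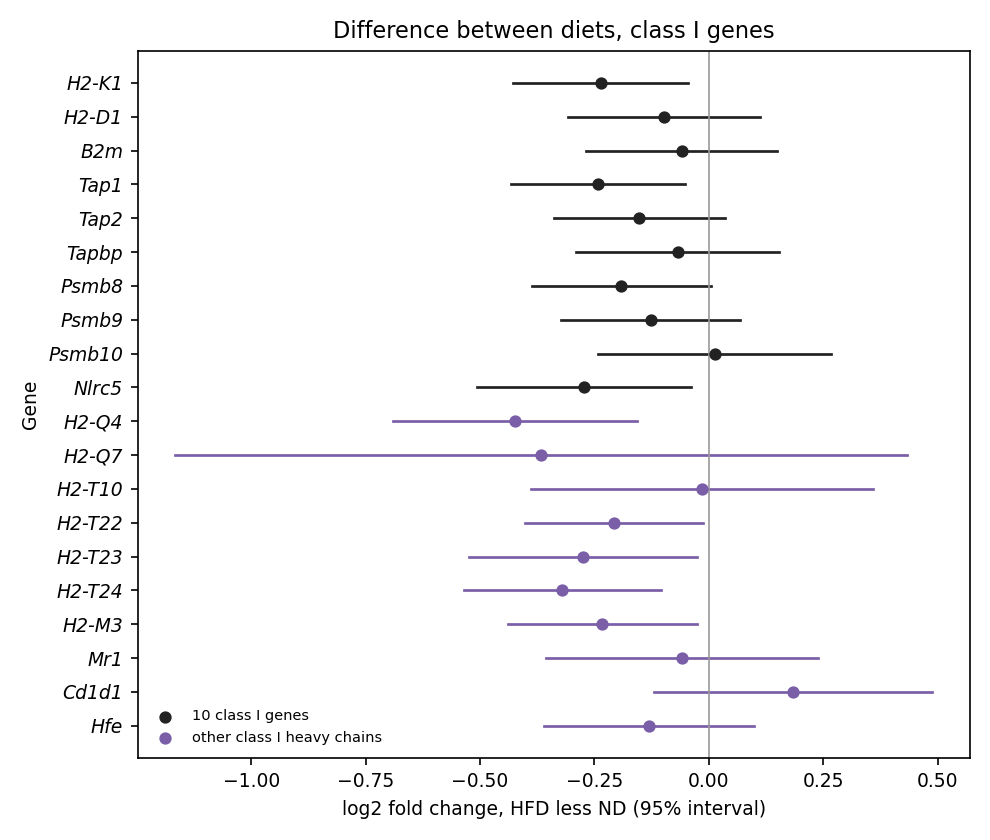
The log2 fold change between diets (HFD less ND, horizontal axis) with its 95% limma interval for the 10 class I genes (black) and 10 other heavy chain genes (purple), 3 libraries per diet. *H2-K1*, *Tap1*, *Nlrc5* and 5 of the other heavy chains have intervals below 0, as do 5.18% of all genes, and in this fit none has an adjusted p under 0.05.

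Other class I heavy chains were read from a list of 17, of which 10 were in the table. Of these, 9 had estimates below 0 (median log2 fold change -0.22), 5 had an unadjusted p under 0.05 with a lower HFD mean (5.18% of all genes), 4 had every HFD value below every ND value (7.07% of all genes), and 0 passed the adjusted threshold. With array weights 2 of the 10 passed it, *H2-Q4* (limma adjusted p 0.0145) and *H2-T24* (0.0226), both lower in HFD, beside 4.02% of all genes. *H2-Q4* had normalized counts of 999.5, 815 and 844 in ND and 785, 608 and 596 in HFD, a log2 fold change of -0.42 (95% interval -0.69 to -0.16, limma adjusted p 0.286). *H2-T24* had 435, 365 and 366 against 322, 306 and 302 (-0.32, limma adjusted p 0.307). *H2-T22* (-0.21, and -0.13 without ND replicate 1) and *H2-M3* (-0.23) were the others without overlap, and *H2-T23*, the mouse Qa-1 molecule, had -0.28 (-0.15 without HFD replicate 3) with HFD replicate 1 (3294) above ND replicate 2 (3166). *Cd1d1*, which presents lipids, was the 1 gene of the list with an estimate above 0 (0.18). The intervals of these genes against 0 are in the plot of fold changes, where the low-count *H2-Q7* has by far the widest. The share of sequence common to these other heavy chains was not measured.

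The exchange of catalytic subunits was read as a ratio within each library, which does not depend on the scaling between libraries. The constitutive counterparts had estimates above 0: *Psmb5* 0.21 (limma adjusted p 0.599), *Psmb6* 0.068 (0.826) and *Psmb7* 0.15 (0.561). Without 1 library, *Psmb5* ran from 0.11 (ND replicate 2 left out) to 0.35 (ND replicate 3), with 0.12 for HFD replicate 2. *Psmb6* ran from 0.010 (ND replicate 1) to 0.15 (ND replicate 3), and was 0.011 without HFD replicate 2, 0.045 without ND replicate 2 and 0.11 without HFD replicate 1. *Psmb7* was 0.097 without ND replicate 2. The count of *Psmb8* was 188.3%, 166.9% and 152.1% of that of *Psmb5* in ND and 135.1%, 117% and 131.8% in HFD. The diets did not overlap, and on the log2 scale the ratio was 0.75 ± 0.15 in ND and 0.35 ± 0.11 in HFD, a difference of -0.40 (exact two-sided permutation p 0.1, the smallest that 3 against 3 libraries can give, and 0.3 adjusted over the 3 pairs). About equal parts of it came from *Psmb8* (-0.19) and *Psmb5* (0.21).

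*Psmb9* was 21.7%, 19.5% and 19.4% of *Psmb6* in ND and 19.4%, 16.7% and 16.8% in HFD. The highest HFD library lay between the lower ND libraries (difference -0.20 on the log2 scale, exact permutation p 0.2, adjusted 0.3). *Psmb10* was 78.2%, 77.2% and 86.4% of *Psmb7* in ND and 79.4%, 78.6% and 62.9% in HFD. That difference (-0.14, exact permutation p 0.6) rested on HFD replicate 3, without which it was -0.026 (-0.085 without ND replicate 3). The exact permutation test used for the ratios cannot go below 0.1 with 3 libraries against 3. Counts were not divided by length here, so the ratios compare libraries and not the amounts of the subunits.

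**Figure D3:**
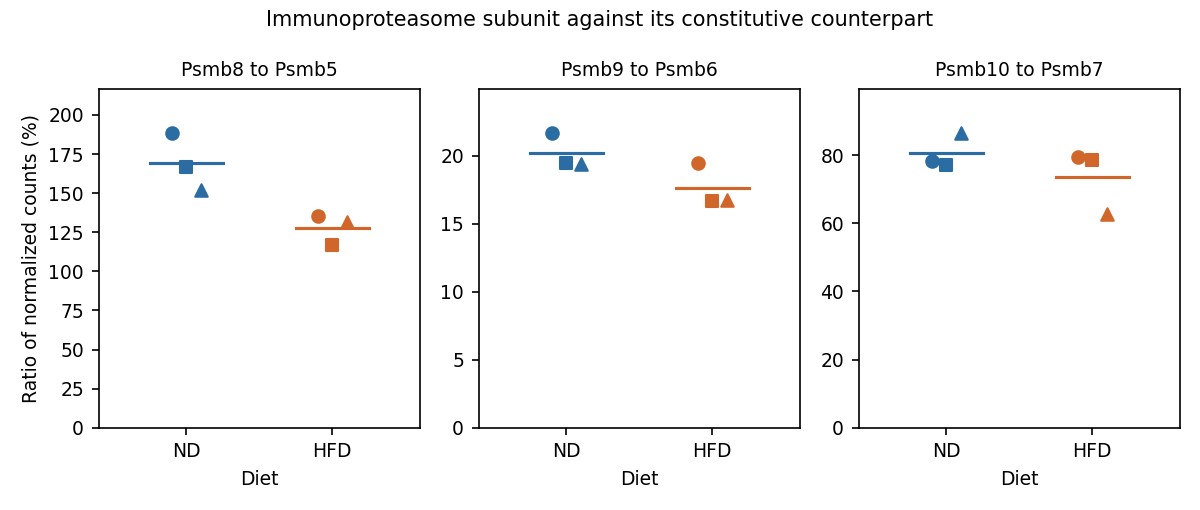
Normalized count of each immunoproteasome subunit as a percent of that of its constitutive counterpart (vertical axis from 0, a scale for each panel) in 3 ND (blue) and 3 HFD (orange) libraries, with a circle, square and triangle for replicates 1, 2 and 3 and lines at the means. The diets are apart for *Psmb8* to *Psmb5* (152% to 188% against 117% to 135%) and meet or overlap for the other pairs.

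The rest of the pathway was described from lists drawn up by function, and no gene of them passed the adjusted threshold in the reported fit. With array weights, *Psma3* (limma adjusted p 0.0106) and *Psmb5* (0.0413) of the constitutive core and *Bcap31* of the endoplasmic reticulum list passed as higher in HFD (2 of 14 and 1 of 10 genes, beside 4.54% of all genes), and *Stat2* (0.0263) of the transcription factors passed as lower (1 of 14, beside 4.02%). The constitutive core of the proteasome had 12 of 14 estimates above 0 (median log2 fold change 0.12). At an unadjusted p under 0.05, 2 of 14 were higher in HFD, beside 5.40% of all genes in that direction. *Psma3*, a structural alpha subunit, had 575, 577 and 617 in ND and 688, 771 and 736 in HFD (log2 fold change 0.31, limma adjusted p 0.260), and *Psma4* had 0.16 (0.431). The activators and assembly factors had 6 of 8 estimates above 0 (median 0.070). *Psmg2*, an assembly chaperone, had 0.28 (limma adjusted p 0.437) and *Psmg1* 0.20 (0.623, and 0.11 without ND replicate 1), neither with overlap of the diets, while *Psme1*, a subunit of the PA28 activator, had -0.067 with every HFD value (1803 to 1870) under every ND value (1917 to 1937). Over all genes, 7.44% had the diets apart with HFD higher and 7.07% with HFD lower.

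The chaperones and trimming enzymes of the endoplasmic reticulum had 8 of 10 estimates above 0 and a median log2 fold change of 0.044. *Erap1*, which trims peptides to their final length, had 0.13 (limma adjusted p 0.542) and *Calr*, calreticulin of the loading complex, 0.13 (0.586, and 0.077 with quantile normalization). Of 6 cytosolic peptidases in the table (7 listed under old and new names) 4 had estimates above 0, with *Tpp2* at 0.072 and *Nrd1* at 0.073 as those of smallest p (both limma adjusted p 0.705). These were 0.043 for *Tpp2* without ND replicate 3 and 0.048 for *Nrd1* without HFD replicate 3. The medians of these 4 lists were thus above 0 while that of the 10 genes was below, a difference between lists that was not tested.

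**Figure D4:**
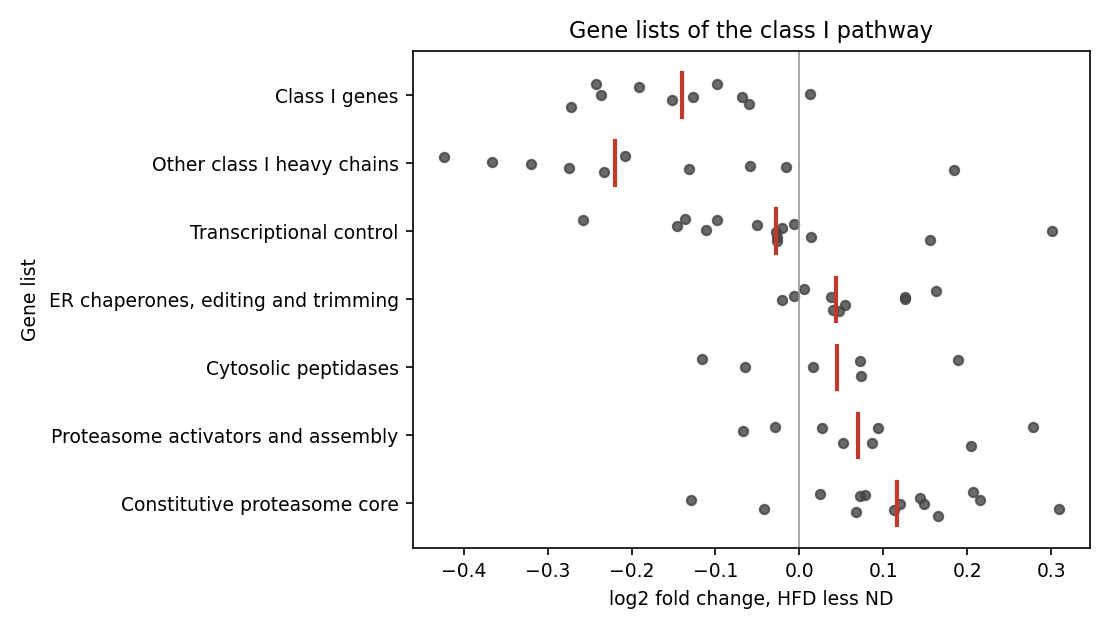
The log2 fold change between diets (HFD less ND, horizontal axis) of each gene in 7 lists of the class I pathway, with a red line at each list's median and points spread vertically only for legibility. Medians run from -0.22 for the other heavy chains and -0.14 for the 10 class I genes to 0.12 for the constitutive proteasome core.

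Among 14 transcription factors that act on class I promoters, 11 had estimates below 0, with a median log2 fold change of -0.028. Without HFD replicate 3 that number was 7 of 14. *Stat2*, which carries the type I interferon signal, had 1576.5, 1320.0 and 1214 in ND and 1269.6, 1038 and 1121 in HFD, with HFD replicate 1 above the lowest ND library (log2 fold change -0.26, 95% interval -0.50 to -0.019, limma adjusted p 0.435), and -0.15 without ND replicate 1. *Irf1*, which binds the interferon response element of class I genes, had -0.051 (95% interval -0.23 to 0.13) and *Rela* -0.021 (-0.15 to 0.11). Both had their lowest value in HFD replicate 3. The subunits of the Y box factor had estimates of both signs, none past the adjusted threshold. *Nfyb* had -0.098 (95% interval -0.30 to 0.10, limma adjusted p 0.743). *Nfya* had 0.16 (limma adjusted p 0.392) and *Nfyc* 0.30 (0.429), both with an unadjusted p under 0.05. At that level 2 of the 14 factors were higher and 1 was lower, beside 5.40% and 5.18% of all genes. *Rfx5*, of the X box factor, had -0.15 (limma adjusted p 0.610).

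The class II genes, which share the X and Y box factors, had estimates above 0 in the same libraries. *H2-Aa* had 3195, 3100 and 3866 in ND and 4971, 6230 and 5284 in HFD (log2 fold change 0.70, limma adjusted p 0.113), and *H2-Eb1* had 0.63 (0.189). With array weights 4 of the 7 class II genes in the table, *H2-Aa*, *H2-Eb1*, *Cd74* and *H2-Ab1*, passed as higher (limma adjusted p 0.00443 to 0.00634, beside 4.54% of all genes), and the same 4 passed without ND replicate 3 (0.0117 to 0.0318, beside 1.22% of all genes). The listed dendritic cell markers summed to 1196 to 2200 in ND and 2128 to 3123 in HFD, and their part in the class II values was not tested. *Ciita* had 0.14, and 0.052 without HFD replicate 2 to 0.25 without HFD replicate 3.

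By the mean absolute difference of log2 values, each centred on the gene's own mean over 6 libraries, the genes most like the average class I profile were *Ddx24* (0.014), *Cd99l2* (0.015), *Mlec* (0.019), *Klhdc10* (0.020) and *Foxo4* (0.021), of 10784 genes ranked. The median gene was at 0.12. The members themselves were at 0.037 (*Psmb9*) to 0.13 (*Psmb10*), with *B2m* at 0.12 and *Nlrc5* at 0.11, so *Psmb10* and *B2m* followed the average no more closely than the median gene did.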

How the data were processed

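RNA libraries (Illumina stranded total RNA, ribosomal RNA removed, 75-base single reads, per the labels' protocols) were processed by the authors with STAR and Partek on mm10, names given without roles in the submitters' processing notes. Counting, annotation and filters are not given in the sources used here. The deposited signal is taken, from its values, as counts per gene after division by a size factor for each library. Between 5 and 1000, 57.0% to 58.4% were whole multiples of 1 read's value (within 0.02 of a read) and the rest fractions, so a count model did not suit them. Columns marked NC were taken as ND.

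Limma 3.58.1 (R 4.3.3, mean-variance trend, two-sided) was fitted to log2(value + 1) of 13232 genes with Benjamini-Hochberg adjustment and a threshold of 0.05. This scale understates changes of low genes. A filter at a mean of 1 removed 0 genes, since the table's lowest mean was 3.36. Intervals are limma's at 95%, and counting error assumes independent reads. The procedure was tested on simulated data. Ratios used exact permutation tests over libraries. Lengths came from GENCODE M21, which matched 12964 symbols (98.0%). Same-numbered libraries had deviations correlated at 0.089, -0.11 and 0.027 over genes, and the reported fit does not pair them. Pairing that touches only part of the genes cannot be told from these values. Members and gene lists were chosen with earlier results of these data known. Named genes are the 10 members, *Psmb5* to *Psmb7*, from each list the 2 of smallest p, and the 5 most like the average profile, and others were named after their values were seen. Alternatives were another pseudocount (0.1), filters, scalings, no trend, array weights, the replicate block and each library left out. Some genes of the lists are not reported here.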

Additional observations from a re-analysis of the deposited data

How the results depend on the processing

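Over the whole table, 0 genes had a limma adjusted p under 0.05 (1401 unadjusted). That number was 1133 (601 higher, 532 lower in HFD) with limma array weights and 31 with the replicate block, and it ran from 0 to 233 without 1 library (233 leaving out ND replicate 3, 2 for HFD replicate 1 and 1 for ND replicate 2). The unadjusted number ran from 700 (ND replicate 1 left out) to 2309 (ND replicate 3 left out) and was 3646 with array weights. Of the 10 class I genes 3 passed with array weights, which gave ND replicate 3 a weight of 0.441 and HFD replicate 2 one of 3.09: *H2-K1* (-0.29, limma adjusted p 0.0318), *Tap1* (-0.33, 0.0289) and *Nlrc5* (-0.39, 0.0354). Over their alternatives these adjusted p-values ran up to 0.940, 0.934 and 0.948, each without ND replicate 1. That library had the highest value for all 3 genes and a weight of 1.91. With array weights 4.02% of all genes passed as lower in HFD. The other members then had -0.17 (*Psmb8*), -0.15 (*Tap2*), -0.12 (*B2m*), -0.084 (*Psmb9*), -0.062 (*H2-D1*), -0.018 (*Tapbp*) and 0.13 (*Psmb10*). In every other alternative, the replicate block included, 0 of the 10 passed. The median over the 10 ran from -0.20 to -0.10 without 1 library, and quantile normalization gave -0.18, with *H2-D1* at -0.22 in place of -0.098, *B2m* at -0.16 in place of -0.059 and *Tapbp* at -0.14 in place of -0.068. Without 1 library, *Psmb10* ran from -0.070 to 0.14, *B2m* from -0.16 to 0.014 and *Tapbp* from -0.16 to 0.048. Of 150 values (10 genes, 15 alternatives) 141 had the reported direction and call, 3 gained the call and 6 turned sign. All 6 of these came from fits without 1 library. The filters, the fit without the trend and the replicate block leave every fold change as it was, so no sign could turn in them. The ratios of proteasome subunits kept their sign in the 11 alternatives run for them. Of these, scaling to the same column total and the replicate block leave such a difference all but unchanged. Of the comparison genes, *H2-Aa* passed with the replicate block (limma adjusted p 0.0477). Causes were not tested.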

Other observations

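Whether values were whole numbers of reads differed between members. In units of 1 read, *Psmb10* and *Nlrc5* were whole (within 0.05 of a read) in 6 of 6 libraries and *Psmb8* in the 5 libraries with fewer than 1500 reads, while *Psmb9* and *Tap2* were whole in 0 of 6 and *Tap1* in 2 of 6. *Tap1* and *Psmb9* overlap each other in exons on opposite strands, by 212 bases. *Tap2* overlaps *Gm15821* by 533 exonic bases and *Psmb8* overlaps *Gm20496* by 498, both on the opposite strand, and *Nlrc5* overlaps *9330175E14Rik* by 78. The part of these overlaps in the fractional values was not tested.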
